A study of Mus musculus with 10 samples.

Results

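RNA levels of 9 matrix metalloproteinases and of Timp1 were followed through 10 tumors of mice, of which 5 were adenocarcinomas and 5 sarcomatoid carcinomas, whose cells are spindle-shaped. The members were Mmp2, Mmp3, Mmp9, Mmp10, Mmp11, Mmp12, Mmp13, Mmp14, Mmp19 and Timp1. They were taken by gene name from the scanner files, synonyms included, which gave 14 probes of 10 genes among the 41174 probes and 19504 named genes of the array. Mmp9 and Mmp14 have 2 probes each, Timp1 has 3, and every other member has 1. All 14 probes were also in the authors' normalized table.

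All primary tumors arose in mice with MMTV-Cre, which drives recombination mainly in mammary epithelium, so Cre marks where a tumor began and not every cell that the tumor piece holds. The adenocarcinomas were tumors 105, 131, 470, 17 and 85, primary mammary tumors of Pik3caH1047R;Trp53R270H;MMTV-Cre mice. The sarcomatoid group held mammary tumors 323, 307 and 594, and 2 lung tumors numbered 323 and 307. Each lung tumor grew after tail vein injection of a cell line made from the mammary tumor of its number, so the group holds 3 origins and not 5. Tumor 594, the unpaired one, was Trp53R270H;MMTV-Cre by elimination from the study's methods. Of the numbers 323 and 307, one was Pik3caH1047R;Trp53R270H;MMTV-Cre and the other Pik3caH1047R;MMTV-Cre with a spontaneous Trp53R245H mutation, and the labels do not say which is which. The labels name no drug and give no age. Tumor 594 is labelled sarcomatoid carcinoma and the other 4 of its group sarcomatoid adenocarcinoma.

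Each array set tumor RNA against a common reference, and each value is the log2 of tumor signal over reference signal. The labels name Cy3 as the tumor dye, whereas the signals of the arrays put the reference in Cy3. The ratios were read with the tumor in Cy5, and every sign given here would turn if the label were right. Between 52.2% and 83.0% of probes per array were well above background in the tumor channel. Of the 14 member probes, 13 were so on all 10 arrays, the exception being Mmp19, which was not well above background in adenocarcinomas 131 and 85. In the reference channel Mmp10 was well above background on 8 arrays and Mmp12 on 5, so the size of their ratios leans on a faint reference. The number of arrays limits the precision. The p-values measure the spread between tumors, of which the lung and mammary pairs are not independent.

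The labels were set against marker genes. The mean log2 ratio over 10 epithelial markers lay from 2.59 to 3.12 in adenocarcinomas 105, 131, 17 and 85, at -1.57 in adenocarcinoma 470, from 0.62 to 1.06 in the mammary sarcomatoid tumors and at -1.76 and -1.88 in the lung tumors. Adenocarcinoma 470 thus stands apart from its group, and the group differences are given with and without it. Among 10 markers of lung epithelium, Sftpa1 was not well above background on any array. Lung minus mammary sarcomatoid had a median of -0.053 over these markers. It was 0.80 for Scgb3a1, 0.34 for Sftpc, 0.23 for Scgb1a1 and 0.11 for Ager, and the other 6 were negative, with Aqp5 at -3.60 and Sftpd at -1.09. Sftpc was well above background on 2 of the 5 sarcomatoid arrays, and Sftpb and Foxj1 on 3, so their differences lean on faint signals. Aqp5 had a mean of 4.05 in the adenocarcinomas, all mammary, so it was not confined to lung tissue here.

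Matrix metalloproteinases are zinc-dependent enzymes that cut collagens and other proteins of the extracellular matrix. Most are released as inactive proenzymes and are opened by other proteases, and Mmp14 is held in the cell membrane, where it activates the Mmp2 proenzyme. TIMPs are small proteins that block the active site, and Timp1 blocks most of these enzymes but Mmp14 poorly. In breast tumors these genes are read in the carcinoma cells, in fibroblasts and in macrophages and neutrophils. In a bulk tumor piece, fewer cells of a type and less RNA per cell cannot be told apart.

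The members lie on 6 chromosomes. Mmp3, Mmp10, Mmp12 and Mmp13 belong to a run of 10 family genes on chromosome 9, where assembly GRCm38.p6 has them in the order Mmp13, Mmp12, Mmp3 and Mmp10 with other family genes between. On the mm7 build of the scanner files their probes lie at chr9:7280046-7280105 (Mmp13), chr9:7352125-7352640 (Mmp12), chr9:7453874-7453933 (Mmp3) and chr9:7508134-7508193 (Mmp10). The lead probes of the others are at chr8:91446191-91446250 (Mmp2), chr2:164695774-164695833 (Mmp9), chr10:75578932-75578991 (Mmp11), chr14:49308207-49308266 (Mmp14), chr10:128300933-128300992 (Mmp19) and chrX:19307699-19307758 (Timp1). The lead probe of a gene is the one with the highest mean signal. No exon annotation of mm7 was used here.

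The 4 members of chromosome 9 also share a short sequence near their starts. Promoter windows from RefSeq (GRCm38.p6, 250 bases before to 50 after a start) were at hand for 7 of the 10 members, all but Mmp2, Mmp9 and Mmp19. They were searched on both strands for TGANTCA, where N is any base. This takes in TGAGTCA and TGACTCA, the letters bound by AP-1 (Fos and Jun proteins). Mmp3, Mmp10, Mmp12 and Mmp13 held a match, and Mmp11, Mmp14 and Timp1 did not, against 2565 of all 32851 windows (7.81%). That share allows any middle base and counts windows, whereas the members are counted as genes. The stretches are given because these 4 genes had lower means in lung than in mammary sarcomatoid tumors, as described further on. None of those differences passed the adjusted threshold, and site could not be told apart from the batch of scanning. A link between them and the sequence was not tested. The matched letters are in capitals below, with the bases around them on the + strand.
Mmp3: ggaagcaattaTGAGTCAgttttcgggtg
Mmp10: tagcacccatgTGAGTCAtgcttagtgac
Mmp12: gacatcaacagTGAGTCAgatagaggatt
Mmp13: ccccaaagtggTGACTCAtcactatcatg
These stretches are chr9:7445765-7445793, chr9:7502268-7502296, chr9:7347319-7347347 and chr9:7272468-7272496, and the match begins 46, 63, 44 and 35 bases before the start of Mmp3, Mmp10, Mmp12 and Mmp13. Mmp12 has a second window without a match. A match describes the letters only, and binding was not measured.

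**Figure D1:**
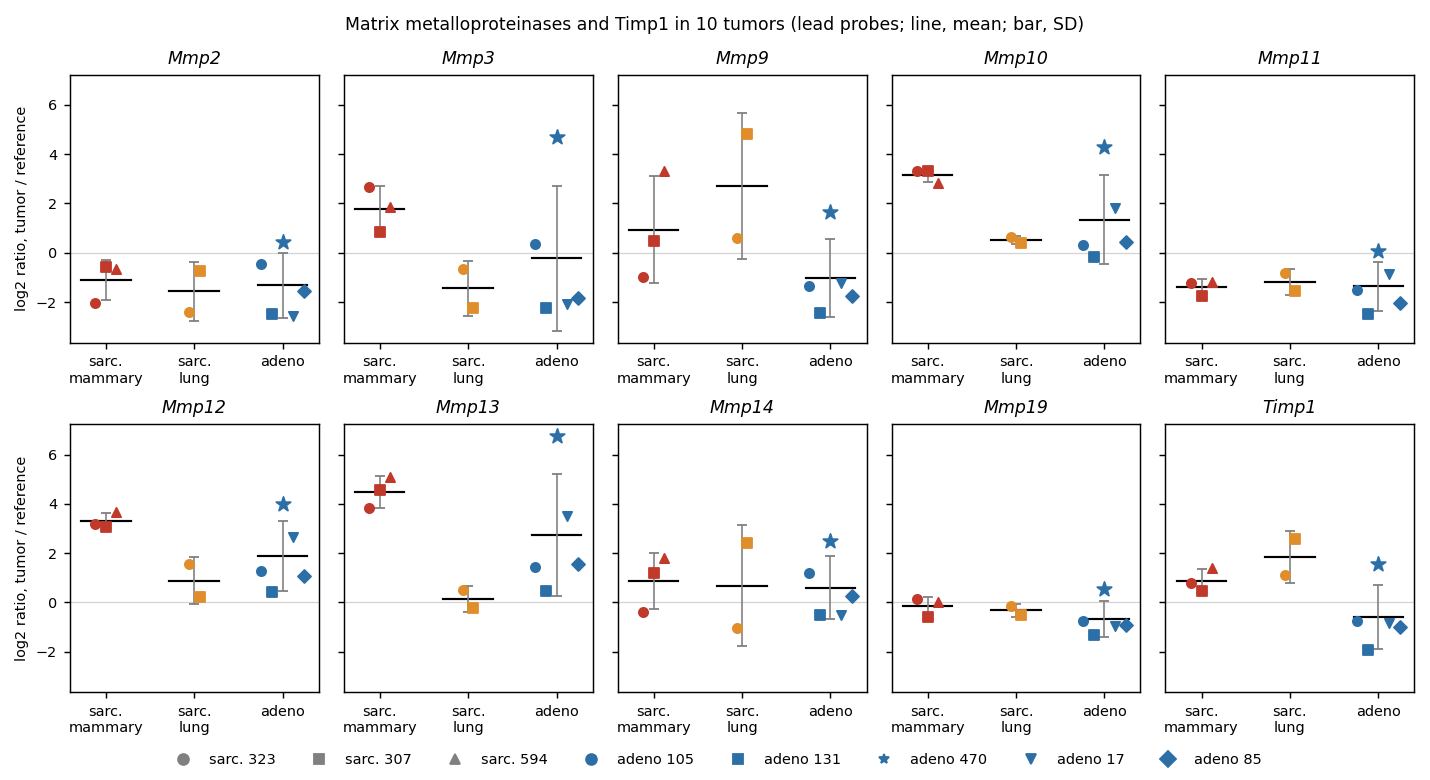
Log2 ratio of tumor over reference (y axis) for the lead probe of each of the 10 genes, in 3 mammary sarcomatoid tumors, 2 lung sarcomatoid tumors and 5 adenocarcinomas; points are arrays with a marker for each tumor number, black lines are means and grey bars SD. Adenocarcinoma 470 (star) is the highest of the 10 arrays for 8 genes, and the lung tumors lie below the mammary sarcomatoid tumors for Mmp3, Mmp10, Mmp12 and Mmp13.

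The first comparison asked which members differ between sarcomatoid carcinoma and adenocarcinoma. Timp1 had the clearest difference, with a mean 3.62-fold higher in the sarcomatoid group, and Mmp9, the type IV collagenase also called gelatinase B, had the largest, 6.39-fold. Neither passed the adjusted threshold over all probes. The stromelysins Mmp3 and Mmp10, the collagenase Mmp13 and the macrophage elastase Mmp12 were high in the mammary sarcomatoid tumors, but low in the lung ones, and adenocarcinoma 470 exceeded them all. All 10 lead probes had a higher sarcomatoid mean, against 48.7% of all probes. Of these, Mmp2, Mmp11 and Mmp13 differed by 0.043, 0.064 and 0.014, and all 3 turned sign under median centring.

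Timp1, the inhibitor, had log2 ratios of 0.77 (tumor 323), 0.48 (307) and 1.39 (594) in the mammary sarcomatoid tumors and 1.1 (323) and 2.59 (307) in the lung. In the adenocarcinomas it had -0.75 (105), -1.92 (131), 1.55 (470), -0.82 (17) and -1.0 (85). All 5 sarcomatoid tumors lay above 4 of the adenocarcinomas, and the groups overlapped through tumor 470 alone. The log2 difference was 1.85 with an SE of 0.62 (n = 5 and 5, limma adjusted p = 0.414), and the exact permutation test over the 10 arrays gave p = 0.0397 (two-sided), where the smallest it allows is 0.00794. With 1 value per tumor number, 3 against 5, the exact test gave p = 0.125, where the smallest it allows is 0.0179. Without adenocarcinoma 470 the difference was 2.39 with an SE of 0.43 and passed the threshold (limma adjusted p = 0.0376). Tumor 470 was the highest adenocarcinoma for Timp1, as for every other lead probe. Leaving it out thus had to raise each difference, and the rise is not separate evidence. Over all probes, 633 passed without tumor 470, against 0 with it.

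The other Timp1 probes told the same over the arrays, with correlations between probes from 0.990 to 0.997. Probe A_51_P512384 differed by 1.67 (limma adjusted p = 0.381) and probe A_51_P512379 by 1.82 (limma adjusted p = 0.401). Without tumor 470 both passed, at differences of 2.09 and 2.30 (limma adjusted p = 0.0253 and 0.0314), a rise again fixed beforehand. In the authors' normalized table the lead Timp1 probe differed by 1.89 (limma adjusted p = 0.394).

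The size differed between scan batches, that is, versions of the extraction protocol in the file headers, and no batch holds lung and mammary sarcomatoid tumors together. In batch 2 (mammary tumors 307 and 594 against adenocarcinomas 105 and 470) the Timp1 difference was 0.53, and tumor 470 at 1.55 is 1 of the 2 adenocarcinomas there, the other being 105 at -0.75. In batch 3 (both lung tumors against 131, 17 and 85) it was 3.09. With the batch as a term it was 1.93.

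Mmp9 had log2 ratios of -0.98 (323), 0.47 (307) and 3.31 (594) in the mammary sarcomatoid tumors and 0.61 (323) and 4.82 (307) in the lung. In the adenocarcinomas it had -1.37 (105), -2.45 (131), 1.67 (470), -1.25 (17) and -1.75 (85). Tumor 594 and the lung tumor 307 were the only arrays above adenocarcinoma 470, and the sarcomatoid tumors spread widely. The log2 difference was 2.68 with an SE of 1.15 (limma adjusted p = 0.489), and the exact permutation test over the 10 arrays gave p = 0.0794 (two-sided). The second probe, A_51_P401797, followed the first at r = 0.991 and differed by 2.29 (limma adjusted p = 0.559). Without tumor 470 the lead probe differed by 3.35 (limma adjusted p = 0.182), within batch 2, where 470 is again 1 of 2 adenocarcinomas, by 1.74 and within batch 3 by 4.53.

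Few of the members stood out when counted against all probes. Of the 10 lead probes, 0 passed the adjusted threshold between sarcomatoid carcinoma and adenocarcinoma, as did 0% of all probes by limma. At an unadjusted p under 0.05 there were 2, Timp1 and Mmp9, against 9.84% of all probes, and 0 did not overlap between the groups, against 1.35%. With the lung tumors left out, 0 lead probes had an unadjusted limma p under 0.05, against 8.31% of all probes. The lead probes of Timp1 and Mmp9 then still differed by 1.47 and 1.96. Timp1 probes A_51_P512384 and A_51_P512379, at 1.38 and 1.44, did fall under that unadjusted limit, but neither passed after adjustment. Histology and scan batch are mixed in this comparison. Without tumor 470, 3 lead probes had an unadjusted limma p under 0.05, Mmp19 being added, against 14.8% of all probes. Of the lead probes 1 passed after adjustment (Timp1), against 1.54%.

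Markers of other cells differed between the groups too. All 10 macrophage markers had a higher sarcomatoid mean (median log2 difference 1.47), against 48.7% of all probes. Of the 10, 7 had an unadjusted limma p under 0.05, against 9.84% of all probes. The mean log2 ratio over the 10 macrophage markers ranged from 2.86 to 3.51 in the sarcomatoid tumors. It ran from 1.06 to 2.29 in adenocarcinomas 105, 131, 17 and 85, and was 3.15 in tumor 470. Within the sarcomatoid tumors this mean was 3.44, 2.86 and 3.51 in mammary tumors 323, 307 and 594, and 3.21 and 2.87 in lung tumors 323 and 307. Among them Mmp9 was lowest in mammary tumor 323, and Mmp9 and Timp1 were highest in lung tumor 307. Tumor 594, with the highest macrophage mean, had Mmp9 at 3.31. The single marker Cd68 followed Timp1 at r = 0.974 over the 10 arrays. It came up in a search of 11744 genes for those most like Timp1, so a high r was selected for. The r of the other macrophage markers with Timp1 is not given here. All 10 fibroblast markers had a higher sarcomatoid mean too (median 0.72, none at p under 0.05), and their mean ran from -0.83 to 2.13 in the sarcomatoid tumors and from -1.26 to 2.44 in the adenocarcinomas, highest in tumor 470. The 10 epithelial markers had lower sarcomatoid means (median -2.18, 4 at p under 0.05, against 9.84% of all probes). The part of these cells in the Timp1 and Mmp9 values was not tested.

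The stromelysin Mmp3 had log2 ratios of 2.68 (323), 0.84 (307) and 1.85 (594) in the mammary sarcomatoid tumors, -0.65 (323) and -2.25 (307) in the lung, and 0.36 (105), -2.24 (131), 4.69 (470), -2.08 (17) and -1.84 (85) in the adenocarcinomas. Mmp10, or stromelysin 2, which cleaves a similar range of matrix proteins, had 3.32, 3.33 and 2.84 in mammary tumors 323, 307 and 594, 0.63 and 0.39 in lung tumors 323 and 307, and 0.31, -0.18, 4.31, 1.82 and 0.46 in adenocarcinomas 105, 131, 470, 17 and 85. In both genes tumor 470 was the highest array, and the mammary sarcomatoid tumors lay above the other 4 adenocarcinomas. The sarcomatoid minus adenocarcinoma differences were 0.72 for Mmp3 and 0.76 for Mmp10 (limma adjusted p = 0.918 and 0.850), with 95% intervals from -2.49 to 3.92 and from -1.36 to 2.88. Without tumor 470 they were 1.94 and 1.5 (limma adjusted p = 0.436 and 0.407), and with the lung tumors left out instead they were 2.01 and 1.82. That last comparison mixes histology with scan batch, since batch 3 then holds adenocarcinomas 131, 17 and 85 and no sarcomatoid tumor. Within batch 2, where 470 is 1 of 2 adenocarcinomas, the differences were -1.18 for Mmp3 and 0.78 for Mmp10. With the batch as a term they were -0.21 and 0.25.

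Mmp12 degrades elastin and is best known from macrophages. Its log2 ratios were 3.20, 3.05 and 3.66 in mammary sarcomatoid tumors 323, 307 and 594, 1.56 and 0.20 in lung tumors 323 and 307, and 1.27, 0.44, 4.01, 2.64 and 1.07 in adenocarcinomas 105, 131, 470, 17 and 85. Mmp13, the main rodent interstitial collagenase, had 3.82, 4.55 and 5.09 in the same mammary sarcomatoid tumors, 0.51 and -0.22 in the lung, and 1.43, 0.47, 6.74, 3.49 and 1.56 in the adenocarcinomas. For Mmp13 both lung tumors lay below 4 of the 5 adenocarcinomas, for Mmp12 the lung tumor 307 lay below all of them and the lung tumor 323 among them, and for both genes the mammary sarcomatoid tumors lay above all adenocarcinomas but 470. The group differences were 0.45 and 0.014 (limma adjusted p = 0.907 and 0.999), with 95% intervals from -1.39 to 2.29 and from -3.14 to 3.17. Without tumor 470 the differences were 0.98 and 1.01 (limma adjusted p = 0.630 and 0.785), and with the lung tumors left out instead they were 1.42 and 1.75. Histology and scan batch are mixed in that last comparison here too. Within batch 2 the differences were 0.72 for Mmp12 and 0.74 for Mmp13, and with the batch as a term they were 0.052 and -0.59.

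Mmp2 and Mmp14 belong together by function, the second being an activator of the first. Mmp2, gelatinase A, ranged from -2.41 to -0.60 in the sarcomatoid tumors (median -0.72) and from -2.58 to 0.43 in the adenocarcinomas (median -1.57). Mmp14 ranged from -1.06 to 2.41 (median 1.19) and from -0.52 to 2.49 (median 0.27). Their group differences were 0.043 and 0.20 (limma adjusted p = 0.991 and 0.959), with 95% intervals from -1.38 to 1.47 and from -1.57 to 1.97, and the second Mmp14 probe, A_52_P304128, differed by -0.011. Without tumor 470 Mmp2 differed by 0.48 and the lead Mmp14 probe by 0.68 (limma adjusted p = 0.777 and 0.761). Lowest in both genes among the sarcomatoid tumors were the arrays of number 323, at -2.03 (mammary) and -2.41 (lung) for Mmp2 and -0.39 (mammary) and -1.06 (lung) for Mmp14, below the arrays of 307 and 594.

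Mmp11, stromelysin 3, known from stromal fibroblasts of breast carcinoma, ranged from -1.75 to -0.82 in the sarcomatoid tumors and from -2.50 to 0.07 in the adenocarcinomas, a difference of 0.064 (limma adjusted p = 0.978, 95% interval -0.91 to 1.04) that was 0.42 without tumor 470. Mmp19 ranged from -0.58 to 0.12 and from -1.32 to 0.55, a difference of 0.46 (limma adjusted p = 0.703). Mmp19 was measured above background in only 3 of the 5 adenocarcinomas. Without tumor 470 the sarcomatoid tumors lay above all 4 other adenocarcinomas, which ranged from -1.32 to -0.74, and the difference was 0.77 (limma adjusted p = 0.0810).

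**Figure D2:**
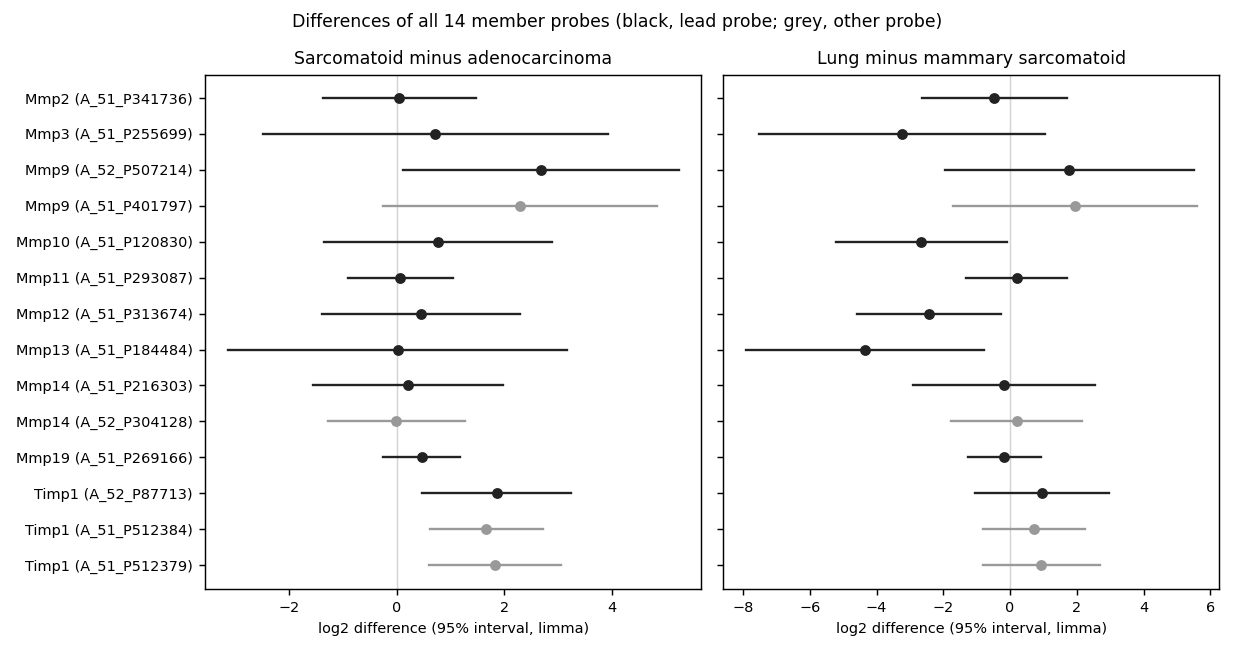
Log2 differences of all 14 member probes (x axes; points, with 95% limma intervals as bars; black, lead probe; grey, other probe), sarcomatoid minus adenocarcinoma on the left and lung minus mammary sarcomatoid tumors on the right. On the left the intervals of the 3 Timp1 probes and of the lead Mmp9 probe lie above 0; on the right those of Mmp10, Mmp12 and Mmp13 lie below 0.

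Site was compared within the sarcomatoid group, with 2 lung and 3 mammary tumors. Mmp13, Mmp12, Mmp10 and Mmp3 were lower in both lung tumors than in every mammary one, while Mmp9 and Timp1 had the higher means in the lung. The mean of Mmp13 was 20.3-fold lower in the lung, that of Mmp3 9.45-fold, of Mmp10 6.30-fold and of Mmp12 5.36-fold. None passed the adjusted threshold in a comparison of 2 against 3 arrays, in which 0.00486% of all probes did. An exact permutation test of 2 against 3 arrays cannot reach 0.05, so the limma fit alone is given.

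The log2 difference, lung minus mammary, was -4.34 with an SE of 1.57 for Mmp13 (limma adjusted p = 0.624). It was -2.42 with an SE of 0.95 for Mmp12 (limma adjusted p = 0.663). Mmp10 differed by -2.66 with an SE of 1.13 (limma adjusted p = 0.697), and Mmp3 by -3.24 with an SE of 1.89 (limma adjusted p = 0.789). These 4 of the 10 lead probes lay lower without overlap, against 14.3% of all probes, and 3 of them (Mmp10, Mmp12 and Mmp13) had an unadjusted limma p under 0.05 in that direction, against 3.28% (7.04% in either direction). Where adenocarcinoma 470 was left out of the estimate of the spread, none of the 4 passed after adjustment either. The limma adjusted p was then 0.417 for Mmp3, 0.221 for Mmp10, 0.375 for Mmp12 and 0.212 for Mmp13.

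The pairs by tumor number reuse the same arrays, in which both lung tumors lay below every mammary one for the 4 genes. A negative sign was thus fixed beforehand, and the pairs add sizes only, with site still tied to scan batch. For tumor 323 the lung value minus the mammary value was -3.33 for Mmp3, -2.69 for Mmp10, -1.64 for Mmp12 and -3.31 for Mmp13. For tumor 307 these were -3.09, -2.95, -2.85 and -4.77. With the tumor number as a replicate block over both pairs, 5 lead probes had an unadjusted limma p under 0.05, the 4 of chromosome 9 and Mmp9, against 12.5% of all probes. None passed after adjustment (limma adjusted p = 0.214 for Mmp3, 0.214 for Mmp10, 0.268 for Mmp12, 0.249 for Mmp13 and 0.310 for Mmp9). That fit held the arrays of the pairs only, so its p-values lean heavily on the spread pooled over all probes. The pairing was also weak, as the difference between tumors 323 and 307 correlated at 0.15 between sites over all probes.

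**Figure D3:**
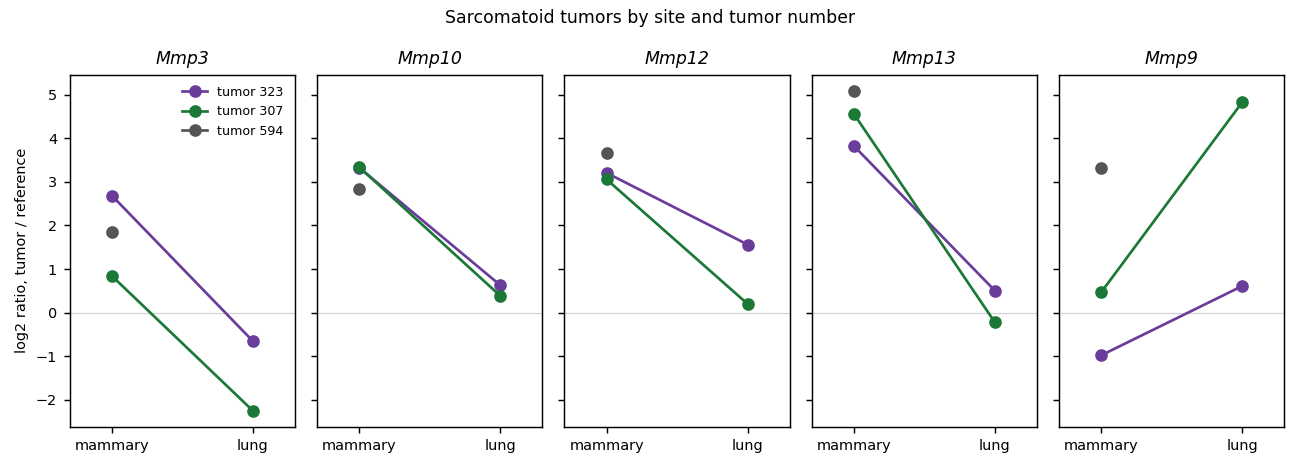
Log2 ratio of tumor over reference (y axis) in the 5 sarcomatoid tumors by site (x axis), with lines joining the mammary and the lung tumor of number 323 and of number 307; tumor 594 has a mammary array only. Mmp3, Mmp10, Mmp12 and Mmp13 are lower in the lung in both pairs, and Mmp9 is higher in both, by 1.59 (323) and 4.35 (307).

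Site and scan batch cannot be told apart within the sarcomatoid group, since both lung tumors were in batch 3 and the mammary sarcomatoid tumors in batches 1 and 2. With the batch as a term, estimated through the adenocarcinomas, the difference was -2.43 for Mmp13, -1.22 for Mmp12 and -0.97 for Mmp10, and it turned to 1.78 for Mmp3, none of them at an unadjusted limma p under 0.05. Within batch 3 the lung tumors could be set against adenocarcinomas 131, 17 and 85. There the lung mean was lower by 1.69 log2 units for Mmp13 and by 0.50 for Mmp12, differed by -0.19 for Mmp10 and by 0.60 for Mmp3, and was higher by 4.53 for Mmp9 and 3.09 for Timp1.

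Mmp9 and Timp1 ran the other way. Timp1 was higher in the lung tumor by 0.33 (323) and 2.11 (307) within the pairs, and the mean difference was 0.96 (limma adjusted p = 0.882, 95% interval -1.04 to 2.97). It was 0.22 without the lung tumor 307 and 2.56 with the batch as a term. For Mmp9 the mean difference was 1.78 (limma adjusted p = 0.883, 95% interval -1.95 to 5.51), and it was -0.33 without the lung tumor 307. The lung means of both genes thus lean on the lung tumor 307. The remaining members overlapped between sites, with lung minus mammary differences of -0.47 (Mmp2), -0.19 (Mmp14), 0.19 (Mmp11) and -0.17 (Mmp19).

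The authors' normalized table gave other sizes for some members. Sarcomatoid minus adenocarcinoma was 3.14 for Mmp9, 1.89 for Timp1, 1.2 for Mmp10, 1.09 for Mmp19, 0.78 for Mmp3, 0.64 for Mmp12, 0.18 for Mmp14, 0.12 for Mmp2, 0.12 for Mmp11 and -0.059 for Mmp13. Mmp10 and Mmp19, and Mmp2 and Mmp11 with their small differences, differed by over 1.5 times as much there as on the loess scale, and Mmp13 had the other sign. Lung minus mammary was -4.76 for Mmp13, -3.44 for Mmp3, -2.94 for Mmp10 and -2.54 for Mmp12 in that table, and 2.03 for Mmp9 and 1.13 for Timp1.

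Markers of other cells differed by site as well. All 10 epithelial markers had lower means in the lung tumors (median log2 difference -2.85). Of these, 3 had an unadjusted limma p under 0.05, against 7.04% of all probes. The mean over the macrophage markers was 2.87 and 3.21 in the lung against 2.86 to 3.51 in the mammary sarcomatoid tumors, so the list means overlapped. Of the 10 macrophage markers, 3 had a higher mean in the lung. Adgre1 (-1.04), C1qa (-0.16) and C1qb (-0.96) lay lower in the lung without overlap, against 14.3% of all probes, and Cd68 (0.93) higher. None of the macrophage markers had an unadjusted limma p under 0.05. The mean over the neutrophil markers was 1.47 and 1.51 against 1.42 to 1.83. Of these markers, Ltf alone had such a p (-2.65), and Cxcr2 (0.48) and Retnlg (0.81) lay higher in the lung without overlap. The share of all probes that lay higher without overlap was not counted. Of 8 endothelial markers 1 had a higher mean in the lung (median -0.84), with the list at 1.28 and 1.70 against 1.60 to 2.79, and Vwf, von Willebrand factor, was the only one at an unadjusted limma p under 0.05 (-2.06). The part of these cells in the values of the chromosome 9 members was not tested.

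Some members varied closely together over the 10 arrays, described here without a test because arrays share batches, origins and the outlying tumor 470. Mmp12 and Mmp13 had r = 0.96, Mmp10 and Mmp12 0.95, and Mmp10 and Mmp13 0.94, while Mmp3 followed these 3 at 0.82 to 0.85. Mmp19 crossed these sets, with 0.86 for Mmp3, the highest of Mmp3, 0.79 for Mmp11 and 0.76 for Timp1. Mmp2 and its activator Mmp14 had 0.93, and Mmp9 and the inhibitor Timp1 0.91. The lowest of the 45 pairs was Mmp9 with Mmp13, at 0.14.

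**Figure D4:**
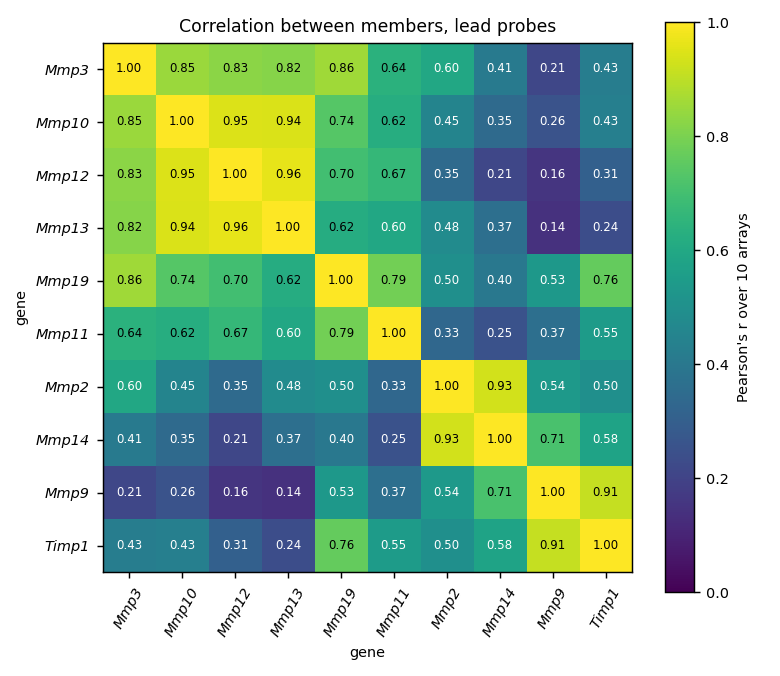
Pearson's r over 10 arrays between the lead probes of the 10 genes (both axes; colour and number, r). Mmp3, Mmp10, Mmp12 and Mmp13 form a block from 0.82 to 0.96, and the pairs Mmp2 with Mmp14 and Mmp9 with Timp1 stand at 0.93 and 0.91.

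The genes outside the family with the most similar pattern were sought among 11744 genes well above background on all 10 arrays, by r over 10 arrays, and no function is read from them. For Timp1 they were Fxyd5 (0.986) and Cd68 (0.974), a lysosomal protein of macrophages. For Mmp14 they were Col6a3 (0.983), a collagen VI chain, and Vgll3 (0.976), for Mmp2 Asphd2 and Nos3 (both 0.970), and for Mmp9 Pde1b (0.974) and Shc1 (0.966). Of the chromosome 9 members, Mmp3 was nearest to Epgn (0.939), a ligand of the EGF receptor, and Dynap (0.933), and Mmp10 to Dynap (0.958) and Tnfrsf9 (0.946). Mmp12 was nearest to Gpr171 (0.948) and Dctn4 (0.945), Mmp13 to Acsbg1 (0.960) and Tmem189 (0.953), and Mmp11 to Mllt11 (0.921) and Fbxw17 (0.902).

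The rest of the pathway was read from lists of related genes. Of 14 other matrix metalloproteinases 12 had a probe, and between sarcomatoid carcinoma and adenocarcinoma 0 passed the adjusted limma threshold, with a median log2 difference of 0.032 against -0.0053 over all probes. Mmp28, or epilysin, was the only one of the 12 at an unadjusted p under 0.05, against 9.84% of all probes (log2 difference 0.40, limma adjusted p = 0.480). Of the other family genes of the chromosome 9 run, 4 had a probe, and lung minus mammary was -0.087 for Mmp1a, -0.14 for Mmp7, -0.092 for Mmp8 and -0.043 for Mmp20. Of these, Mmp20 was not well above background on any array, and Mmp1a was well above it on only 4 of the 10 arrays. The differences of both thus lean on faint signals. Between the sites 0 passed and 3 of the 12 had an unadjusted p under 0.05, against 7.04% of all probes. Lung minus mammary was 0.57 for Mmp28 (limma adjusted p = 0.561), 1.69 for Mmp16, a membrane-bound enzyme (limma adjusted p = 0.632), and -0.29 for Mmp25 (limma adjusted p = 0.620).

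Among the inhibitors Timp2, Timp3, Timp4 and Reck, 0 passed the adjusted limma threshold in either comparison, and 1 of the 4 had an unadjusted p under 0.05 between the histologies and 0 between the sites, against 9.84% and 7.04% of all probes. That was Timp2, which also takes part in activating Mmp2 at the cell surface. It had a sarcomatoid mean of 0.59 and an adenocarcinoma mean of -1.57 (log2 difference 2.15, SE 0.87, limma adjusted p = 0.472). Of 16 genes of activation and induction, 0 passed the adjusted limma threshold in either comparison, and 2 of the 16 had an unadjusted p under 0.05 in each, against 9.84% and 7.04% of all probes. Plau, the urokinase that starts the plasmin cascade opening proenzymes, differed by 2.19 (SE 0.56, limma adjusted p = 0.378), and the transcription factor Ets2 by -0.67 (limma adjusted p = 0.482). Lung minus mammary was -0.87 for Ets2 (limma adjusted p = 0.620) and -2.94 for Lcn2, which binds and protects Mmp9 (limma adjusted p = 0.693). The genes of AP-1 subunits on the list were not among these, with lung minus mammary differences of 0.21 for Fos, 0.54 for Fosl1 and -0.61 for Jun.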

How the data were processed

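RNA of 10 tumors was measured on 2-colour Agilent arrays. The authors deposited spot intensities and log10 ratios from Feature Extraction (versions 10.7.3.1, 11.0.1.1 and 11.5.1.1 per the file headers) and a normalized log2 table whose steps, scale and centring are not stated beyond naming limma. The members and lists were chosen with earlier results of these data known.

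Median intensities were corrected with normexp (offset 50) and loess within arrays in limma 3.58.1 (R 4.3.3), without control or outlier spots, and a probe's spots were averaged. Each deposited column correlated best with the red over green ratio of its own array. Green differed less between arrays than red (mean SD 0.738 against 0.987 of log2 signal) and was read as the reference. The lowest correlation between arrays was 0.373. Gene names came from the accession (22944 probes), else the symbol (6664) or a synonym (3108), and 8458 probes had no match. Groups were compared by lmFit and eBayes, two-sided, with Benjamini-Hochberg adjustment over all 41174 probes and a threshold of 0.05. Lung was compared in a fit of 3 groups. The text names every member, listed genes at an unadjusted p under 0.05 (at most 4 a list and comparison), and the 2 genes most like each member well above background on all arrays (not Mmp19). Adam9, Fos, Fosl1, Jun, Mmp1a, Mmp7, Mmp8 and Mmp20 were named after their values were seen. Each lung tumor comes from a cell line of the mammary tumor of its number. The difference between tumors 323 and 307 correlated at 0.15 between sites over all probes. Simulated data with known changes were used to test the fit. Alternatives were the deposited table, other background and centring choices, a filter on dim probes, batch, slide and tumor number, and leaving out each array.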

Additional observations from a re-analysis of the deposited data

Results flagged for a closer look

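Of 28 combinations of member probe and group, 1 had an extreme array by Dixon's ratio, and chance gives about 1.4. Timp1 probe A_51_P512384 was at 0.95 in adenocarcinoma 470, while the other 4 adenocarcinomas lay from -1.65 to -0.92, a gap of 0.720 of the range of the group.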

How the results depend on the processing

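No lead probe of a member passed the adjusted limma threshold under any alternative except Timp1 without adenocarcinoma 470 (2.39). Over all probes, sarcomatoid against adenocarcinoma gave 0 calls, but 1 under median centring, 3 with slide as a random block and 3 with 1 value per tumor number, and 0 to 633 with each array left out, the highest without tumor 470. Lung against mammary gave 2 calls, but 10 in the deposited table, 0 with scan batch as a term, 0 with the tumor number as a replicate block, 5 on the sarcomatoid arrays only, and 0 to 34 with each array left out, the highest without the lung tumor 307. Where 1 lung array remained, it was assumed to vary like the others. The sign of some differences turned. For sarcomatoid minus adenocarcinoma, Mmp2 was -0.11 (median centring), -0.051 (Agilent processed signals) and -0.055 (slide block). Mmp11 was -0.087 (median centring), -0.0020 (batch term), -0.052 (slide block) and -0.014 (mammary only). Mmp13 was -0.059 (deposited), -0.14 (median centring), -0.078 (processed signals), -0.018 (no background subtraction) and -0.59 (batch term), and Mmp3 was -0.21 (batch term). With each array left out, Mmp2 ran from -0.27 to 0.48, Mmp11 from -0.22 to 0.42, Mmp13 from -0.57 to 1.01 and Mmp14 from -0.21 to 0.68. For lung minus mammary, the batch term gave 1.28 (Mmp2), 1.78 (Mmp3), 1.28 (Mmp14) and 0.93 (Mmp19), and the replicate block gave 0.28 (Mmp14). With each array left out, Mmp2 ran from -1.31 to 0.38, Mmp9 from -0.33 to 3.88, Mmp11 from -0.17 to 0.56, Mmp14 from -1.92 to 1.55 and Mmp19 from -0.39 to 0.017. The cause was not tested. Dim signals limit Mmp19 in the adenocarcinomas and Mmp10 and Mmp12 in the reference.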

Other observations

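Adamalysins, relatives of the matrix metalloproteinases that shed proteins from the cell surface, were read from a list of 12, and 0 passed the adjusted limma threshold in either comparison, while 2 had an unadjusted p under 0.05 between the histologies and 0 between the sites, against 9.84% and 7.04% of all probes. Adam17, the enzyme that releases TNF, had a sarcomatoid minus adenocarcinoma log2 difference of 0.71 (limma adjusted p = 0.381) and Adam15 one of 0.78 (limma adjusted p = 0.464). Without adenocarcinoma 470, 1 of the 12 passed, Adam9 (limma adjusted p = 0.0387), against 1.54% of all probes.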
